A study of Mus musculus with 2 samples.

Results

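Phase II conjugation enzymes couple a drug, hormone, bile pigment or other lipophilic compound to a polar group, so that it can leave the liver in bile or urine. The genes described here are those of the count tables whose symbols begin with Gst and a class letter, Mgst, Ugt or Sult followed by a number. This name rule gave 64 of 24421 genes, of which 24 were glutathione transferases, 21 glucuronosyltransferases and 19 sulfotransferases. The data are RNA-seq counts from liver of male C57BL/6 mice that were 6 weeks old when a high-fat diet began and ate it for 12 weeks. 1 library came from control liver, genotype RORalpha f/f, in which both Rora alleles carry loxP sites and Alb-Cre is not listed. The other came from liver of genotype RORalpha f/f:Alb-Cre and is labelled LKO, for liver-specific knockout of the nuclear receptor RORα. Both libraries therefore share the floxed alleles, the strain, the sex and the diet. Cre under the albumin promoter acts in hepatocytes, and liver cells in which it does not act keep Rora. The number of animals behind each library was not given in the sources used here.

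Each of the 3 families uses its own donor. Glutathione transferases join glutathione to electrophiles and also reduce peroxides or isomerise substrates, and they are grouped into classes named by Greek letters (alpha, mu, pi, theta, kappa, omega, zeta) plus unrelated membrane-bound Mgst proteins. Glucuronosyltransferases of the endoplasmic reticulum transfer glucuronic acid from UDP-glucuronate to bilirubin, steroids, bile acids and drugs. Cytosolic sulfotransferases transfer sulfate from PAPS to phenols, steroids and bile acids. In liver these genes are known to be set by the xenobiotic receptors CAR, PXR and AhR, by the oxidant sensor NRF2, and by sex-dependent growth hormone secretion.

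Levels are given as CPM, the count relative to library size, after TMM scaling (trimmed mean of M-values), which sets the bulk of genes equal between libraries. Where a pair of values is given, the control comes first. A ratio is the CPM of the library labelled LKO over that of the control library, and its 95% exact interval covers counting error only, since 1 library per genotype leaves no spread between replicates and no test. Depth was 128201591 counts for the control and 131843686 in the library labelled LKO. Scaling by total count would raise every log2 ratio by 0.42, so members with a log2 ratio from −0.42 to 0 would turn positive. Rora had 33.4 CPM for the control and 24.1 CPM in the library labelled LKO, 1.38-fold (interval 1.32 to 1.45) lower, a total over all exons of the gene. Because that total was not lost, every direction below refers to the label LKO and not to loss of RORα. Hepatocyte markers dominated both libraries, with a summed level of 161985 CPM (control) and 119618 CPM (LKO label) over 6 genes, none at 0. Most of that sum was Alb, at 117952 and 91007 CPM. Of the 6 genes 0 were higher and 2 were lower by 1.5-fold or more, Serpina1a (1.74-fold) and Tat (2.24-fold). The median log2 ratio of the 6 was −0.35. Over all genes measured by the rule below, 10.5% were higher and 9.76% were lower by as much. As these are whole-tissue samples, fewer cells of a type and less RNA per cell cannot be told apart.

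A member counted as measured if its mean level reached 1 CPM and its summed count 20. By that rule 45 of 64 members were measured, namely 21 of 24 glutathione transferases, 18 of 21 glucuronosyltransferases and 6 of 19 sulfotransferases. Of the 45, 13 were higher by 1.5-fold or more in the library labelled LKO with an interval that excluded 1, or 28.9%, against 10.5% of all 11137 measured genes. A further 7, or 15.6%, were lower by as much, against 9.76% of all measured genes. The 13 include 6 Ugt1a genes that share exons, and with the Ugt1a genes counted as 1 the split was 7 higher and 7 lower among 38. With total-count scaling it was 17 higher and 4 lower, while among all measured genes it moved from 1169 higher and 1087 lower to 3820 and 288. At a 2-fold limit 2 members were higher, Mgst3 and Sult1c2, beside 3.83% of all measured genes, and 4 were lower, Gstp1, Gstp2, Gsta2 and Sult5a1, beside 2.62%. The remaining 25 members lay within 1.5-fold, between Sult1d1 at a log2 ratio of −0.49 and Ugt1a6a at 0.51.

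**Figure D1:**
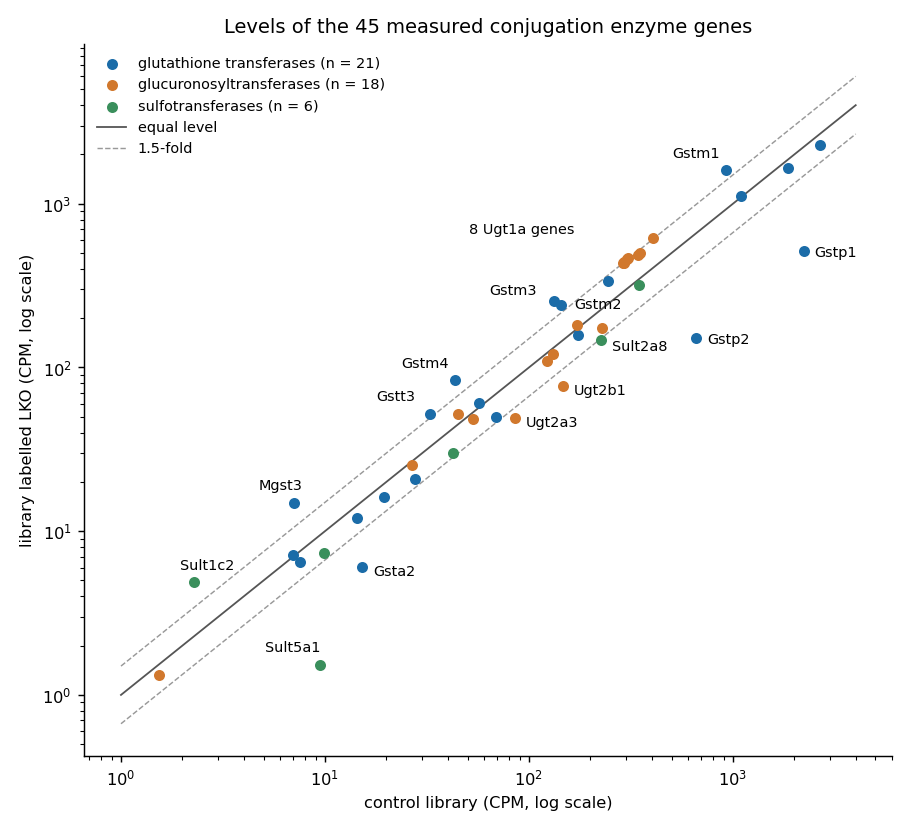
Level of each measured member in the control library (x axis) and in the library labelled LKO (y axis), both in TMM-scaled CPM on log axes; each point is 1 gene, coloured by family, and dashed lines mark 1.5-fold. Gstp1 and Gstp2 lie far below the line of equal level at high abundance, and Gstm1 to Gstm4 lie above the upper dashed line.

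Glutathione transferases were the most abundant family by counts, and their classes went opposite ways. The summed level of the family was 10445 CPM for the control and 8649 CPM in the library labelled LKO. The pi class made up 27.6% of that sum for the control and 7.67% in the library labelled LKO, while the mu class went from 12.7% to 26.1%. Past the 1.5-fold limit were 6 higher and 3 lower of 21 measured members, beside 10.5% higher and 9.76% lower of all measured genes. The median log2 ratio was −0.12, beside −0.0032 over all measured genes, and it was 0.30 with total-count scaling.

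The pi class held the largest difference in the family. Gstp1, a detoxifying enzyme of electrophiles that also binds stress kinases, had 246020 counts for the control and 78138 in the library labelled LKO, or 2219 and 512 CPM. That is 4.33-fold (interval 4.30 to 4.37) lower. Per kilobase of transcript, Gstp1 was the highest of all members in the control library, at 2703 CPM per kb, and stood at 624 in the library labelled LKO, below Gsta3, Gstm1, Gstz1 and Mgst1. Gstp2, its neighbour on chromosome 19, had 659.5 and 151 CPM and was 4.37-fold (interval 4.30 to 4.43) lower. In mouse liver, pi-class genes are known to be expressed at a higher level in males than in females.

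Gstp1 (chromosome 19, 4035407 to 4037985, minus strand, mm10) and Gstp2 (4040285 to 4046023, same strand) are close copies. Their coding sequences were 98.1% identical over 630 aligned bases, and 62.3% of the 50-base windows of the Gstp1 transcript also occur in a Gstp2 transcript. Reads can therefore be assigned to either copy, and Gstp1 had 3.37 times the count of Gstp2 for the control and 3.39 times in the library labelled LKO. The 250 bases upstream of each start (RefSeq, GRCm38.p6) are shown because these copies had nearly the same ratio, with the letters TGAGTCA, the binding site of AP-1 and related factors, in capitals.
Gstp1: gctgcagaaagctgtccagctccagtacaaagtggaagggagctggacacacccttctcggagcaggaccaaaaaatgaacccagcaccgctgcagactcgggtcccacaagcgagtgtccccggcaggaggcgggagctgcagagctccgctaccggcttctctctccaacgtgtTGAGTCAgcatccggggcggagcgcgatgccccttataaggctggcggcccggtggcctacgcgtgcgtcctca
Gstp2: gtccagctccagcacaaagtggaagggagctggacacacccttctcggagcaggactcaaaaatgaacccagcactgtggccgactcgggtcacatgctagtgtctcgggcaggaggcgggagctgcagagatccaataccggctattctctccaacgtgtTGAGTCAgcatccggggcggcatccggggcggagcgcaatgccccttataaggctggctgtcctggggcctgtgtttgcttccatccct
These windows are chr19:4037913-4038162 for Gstp1 and chr19:4042222-4042471 for Gstp2, both on the minus strand. The gene spans given above are from GENCODE M21, and the RefSeq starts lie inside them. The Gstp2 window therefore falls within its gene span, and the Gstp1 window overlaps the end of its span. The sequences shown were identical at 207 of 265 aligned positions, or 78.1%. The letters TGAGTCA begin 74 bases upstream of the Gstp1 start and 89 bases upstream of the Gstp2 start, and were searched for after the values were seen. They occur on either strand in 5.20% of 32851 promoter windows of 300 bases, and in 5 of the 51 windows of measured members.

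The mu class was split, with 4 of 7 genes higher by more than 1.5-fold, beside 10.5% of all measured genes. Gstm1, the main mu-class enzyme of mouse liver, had 926 and 1596 CPM and was 1.72-fold (interval 1.71 to 1.74) higher. Gstm3 had 133 and 256 CPM and was 1.93-fold (interval 1.89 to 1.97) higher. Gstm2 had 144 and 240 CPM, 1.67-fold higher, and Gstm4 had 43.6 and 83.4 CPM, 1.91-fold higher. These 4 stayed at least 1.5-fold higher under every scaling tried. The other mu-class genes did not pass: Gstm6 was at 56.9 and 60.9 CPM, Gstm5 at 6.94 and 7.19 CPM, and Gstm7 at 19.5 and 16.2 CPM, the last turning positive with total-count scaling. The summed mu-class level was 1329 CPM for the control and 2261 CPM in the library labelled LKO.

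Position separated these groups. The 7 mu-class genes lie in a row on chromosome 3, from 107895821 to 108044894, in the order Gstm5, Gstm7, Gstm6, Gstm3, Gstm2, Gstm1 and Gstm4. The 4 higher genes are the 4 adjacent ones at the end nearer Gstm4. Coding similarity followed that border only in part. On the higher side, Gstm1 was 89.4% identical to Gstm3, the closest pair, and 85.9% to Gstm2. Gstm5 was at most 71.1% identical to any other mu-class gene, and Gstm6 at most 80.9%. Across the border, however, Gstm7 was 85.2% identical to Gstm2 and 82.6% to Gstm1, while Gstm4, on the higher side, was 80.5% identical to Gstm1. Exact 50-base windows shared with other transcripts of the family made up 19.5% of Gstm1, mostly with the pseudogene Gstm2-ps1, 18.3% of Gstm3, 6.73% of Gstm6, 1.08% of Gstm2 and 0 of Gstm4, Gstm5 and Gstm7. Upstream windows of Gstm1 and the other mu-class genes were 43.7% to 48.1% identical.

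**Figure D2:**
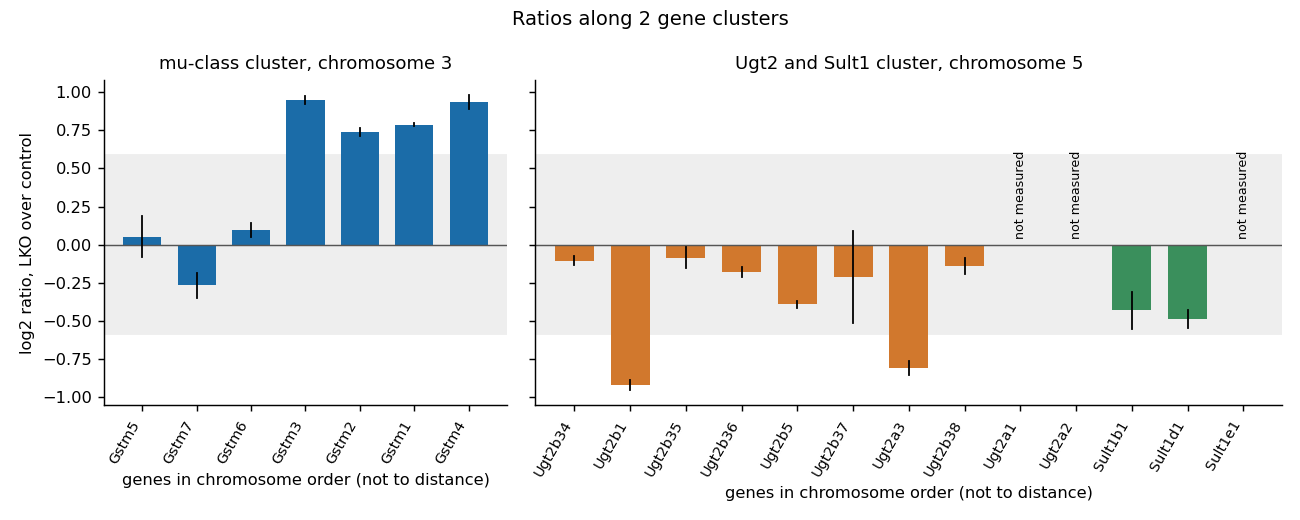
Log2 ratio (library labelled LKO over control, TMM scaling) of the members in chromosome order for the mu-class cluster (left) and the Ugt2 and Sult1 cluster (right); bars are ratios, lines their 95% counting intervals, and the grey band is within 1.5-fold. Gstm3, Gstm2, Gstm1 and Gstm4 stand side by side above the band, and Ugt2b1 and Ugt2a3 fall below it on either side of 4 genes that stay inside.

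Mu-class enzymes are known to be expressed mainly near the central vein, and several markers of that zone were higher too. Of 9 measured pericentral markers, 4 were higher and 1 was lower past the limit. Among all measured genes 10.5% were higher and 9.76% were lower by that limit. The summed level of the pericentral markers was 8122 CPM for the control and 11670.5 CPM in the library labelled LKO. Most of that sum was Cyp2e1, at 7209 and 10482 CPM and within 1.5-fold. Glul, the glutamine synthetase gene of the cells next to the central vein, was 2.20-fold (interval 2.17 to 2.23) higher. Cyp1a2 of the same list was 1.63-fold lower. Of 9 periportal markers, 0 were higher and 6 were lower. Their sums were 8650 and 5951 CPM, of which Ass1, within 1.5-fold, made up 4338 and 3292 CPM. No markers of either zone were at 0. Their part in the mu-class difference was not tested.

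Measured theta-class and microsomal members included 2 that were higher and none lower past the limit. Of all measured genes, 10.5% were higher and 9.76% lower. Gstt3 had 32.9 and 52.3 CPM and was 1.59-fold (interval 1.53 to 1.65) higher. Its neighbour Gstt1, which acts on small halogenated compounds, had 245 and 339 CPM and was 1.38-fold higher, inside the 1.5-fold limit. Gstt2 had 14.3 and 12.0 CPM, turning positive with total-count scaling. Gstt4 had no count in either library, which allows up to 0.0271 CPM for the control and 0.0197 CPM in the library labelled LKO. Mgst3, a membrane-bound peroxidase and leukotriene C4 synthase, had 785 and 2282 counts (7.08 and 15.0 CPM) and was 2.11-fold (interval 1.95 to 2.29) higher. Mgst1, the abundant microsomal form, was nearly equal at 1095 and 1118 CPM. Mgst2 was read only 21 and 3 times and was not measured.

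The alpha class had one called member. Gsta2, an inducible alpha-class gene, had 1692 and 920 counts (15.3 and 6.03 CPM) and was 2.53-fold (interval 2.33 to 2.74) lower. Gsta1, whose coding sequence was 97.6% identical to that of Gsta2, had 7.52 and 6.46 CPM and was 1.16-fold lower, turning positive with total-count scaling. Thus Gsta1 had 0.493 times the count of Gsta2 for the control and 1.07 times in the library labelled LKO. Windows shared with Gsta1 made up 44.8% of the Gsta2 transcript, so part of each count cannot be assigned. The upstream windows of this pair were 70.5% identical. Gsta3, the dominant alpha-class gene of mouse liver, had 2682 and 2282 CPM, and Gsta4, which clears lipid peroxidation aldehydes such as 4-hydroxynonenal, had 27.7 and 20.9 CPM. Both were within 1.5-fold and turn positive with total-count scaling, Gsta4 barely, to a log2 ratio of 0.01.

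The other soluble members lay within the limit. Gstz1, a tyrosine breakdown enzyme (maleylacetoacetate isomerase), had 1867 and 1664 CPM. Gstk1, the mitochondrial and peroxisomal kappa form, had 173 and 159 CPM. Gsto1, an omega-class thioltransferase, had 7656 and 7624 counts and was 1.38-fold lower. Gsto2 was read 0 and 7 times. With total-count scaling Gstz1 and Gstk1 turn positive. Gstz1 overlaps Pomt2 on the opposite strand, which had 1453 and 1865 counts.

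**Figure D3:**
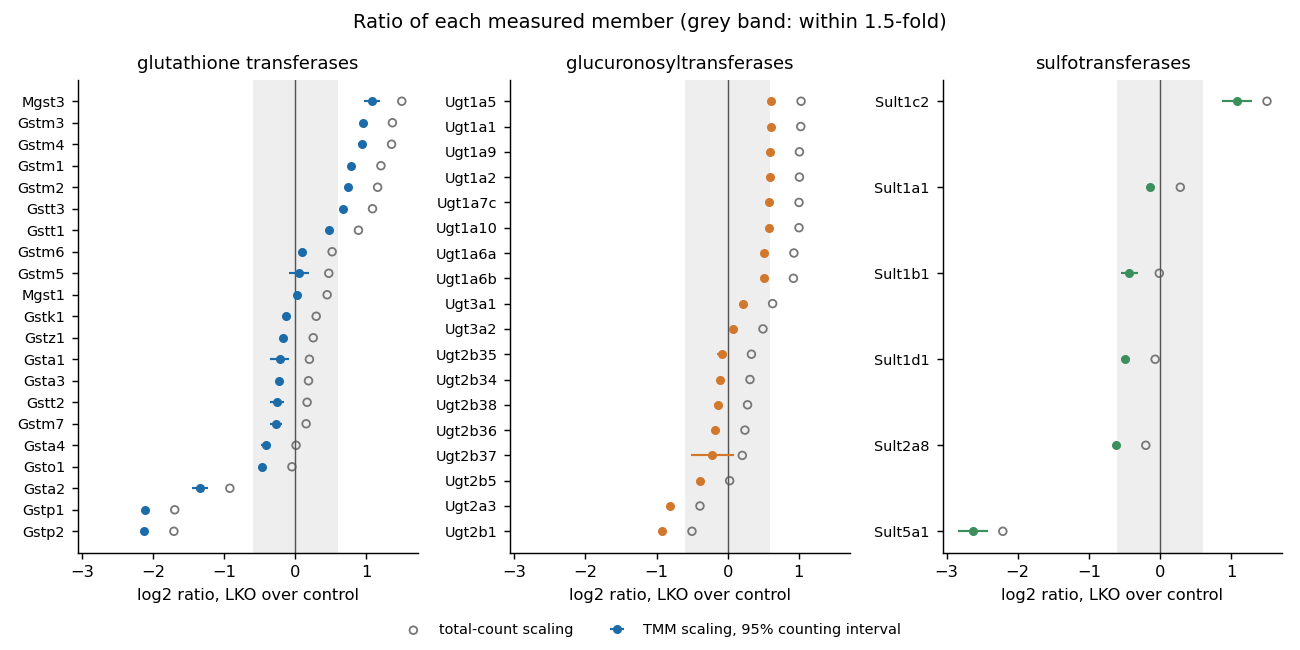
Log2 ratio (library labelled LKO over control) of every measured member by family, ordered by ratio; filled points are TMM-scaled with 95% counting intervals, open circles are scaled by total count, and the grey band is within 1.5-fold. Gstp1, Gstp2, Gsta2 and Sult5a1 lie left of the band under both scalings, and the Ugt1a genes lie on its right edge under TMM scaling.

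Glucuronosyltransferases split by subfamily, with all 8 Ugt1a genes above a ratio of 1 and all 8 measured Ugt2 genes below it. The Ugt1a sum went from 2579 to 3841 CPM and the Ugt2 sum from 795 to 605 CPM. Past the limit were 6 higher and 2 lower of 18 measured members, beside 10.5% higher and 9.76% lower of all measured genes. The median log2 ratio was 0.15, a value between the subfamilies, beside −0.0032 over all measured genes. The family median became −0.14 when the Ugt1a genes were counted as 1. With total-count scaling, 6 of the 8 Ugt2 genes turn positive, all but Ugt2b1 and Ugt2a3.

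Ugt1a genes are alternative first exons of one locus on chromosome 1, each spliced to the same last 4 exons, so they encode different substrate-binding parts and a common part that binds UDP-glucuronate. The joins are printed because they show what the 8 counts have in common. Each line gives the last 30 bases of the gene's own exon in lower case and the first 30 bases of the shared part in capitals (GENCODE M21 transcripts, GRCm38, plus strand).
Ugt1a10: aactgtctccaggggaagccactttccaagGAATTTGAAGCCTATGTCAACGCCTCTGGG
Ugt1a9: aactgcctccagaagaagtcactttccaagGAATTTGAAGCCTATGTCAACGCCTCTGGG
Ugt1a7c: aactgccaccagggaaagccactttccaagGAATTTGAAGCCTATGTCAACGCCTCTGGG
Ugt1a6b: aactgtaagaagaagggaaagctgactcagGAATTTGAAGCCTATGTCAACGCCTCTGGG
Ugt1a6a: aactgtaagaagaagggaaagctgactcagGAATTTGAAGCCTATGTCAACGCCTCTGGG
Ugt1a5: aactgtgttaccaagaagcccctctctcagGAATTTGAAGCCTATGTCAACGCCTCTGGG
Ugt1a2: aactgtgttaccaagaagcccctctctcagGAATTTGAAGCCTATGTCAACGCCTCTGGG
Ugt1a1: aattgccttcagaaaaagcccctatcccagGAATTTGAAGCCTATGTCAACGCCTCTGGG
The own exons end at 88056336 for Ugt1a10 and at 88212871 for Ugt1a1, the outermost genes, and the first shared exon runs from 88215044 to 88215175. The lower-case bases of Ugt1a6a and Ugt1a6b are identical, as are those of Ugt1a2 and Ugt1a5. For most of the 8 genes the shared exons hold 1311 bases of transcript, beside 913 in the own exon of Ugt1a1.

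The counts carry that structure. Ugt1a10 had the lowest count in both libraries, 32153 for the control and 66359 in the library labelled LKO, and the highest, Ugt1a1, had only 1.40 and 1.42 times as many. All 8 were 1.42-fold to 1.53-fold higher, across the 1.5-fold limit. Ugt1a10 and Ugt1a7c lay on it, both with a log2 ratio of 0.59, and Ugt1a6a and Ugt1a6b missed it at 1.43-fold and 1.42-fold. The summed counts gave 1.49-fold higher. Scaling by upper quartile took Ugt1a10, Ugt1a9, Ugt1a7c and Ugt1a2 below the limit, and total-count scaling put all 8 above it.

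Counts above those of Ugt1a10 are what each gene has beyond the level common to all, if reads of the shared exons were counted once for every gene. That rule was not given in the sources used here. They differed between genes. Ugt1a1, the bilirubin-conjugating enzyme, had 12769 for the control and 27959 in the library labelled LKO, or 115 and 183 CPM, 1.59-fold (interval 1.56 to 1.63) higher. Ugt1a6a and Ugt1a6b, which conjugate planar phenols, had 58.7 and 62.7 CPM and 50.8 and 49.1 CPM, with ratios of 1.07 (interval 1.03 to 1.10) and 0.97. Ugt1a5 had 16.3 and 33.9 CPM, 2.07-fold (interval 1.97 to 2.19) higher, and Ugt1a9 had 2.98 and 6.30 CPM, 2.12-fold (interval 1.87 to 2.41) higher. Ugt1a2 had 13.7 and 22.4 CPM, 1.63-fold higher. Ugt1a7c, the smallest, had 1.12 and 1.68 CPM, from differences of only 124 and 256 counts. Pairs with alike own exons can share these counts as well. In GENCODE M21 the condition does not hold for Ugt1a7c, since one of its transcripts uses the Ugt1a6a exon and its transcripts hold 100% of the 50-base windows of Ugt1a6a and 80.7% of those of Ugt1a6b. Yet Ugt1a7c had fewer counts than either, 32277 against 38665 for Ugt1a6a in the control library. The counts above Ugt1a10 are therefore a description and no measure of each first exon. Their intervals treat each difference as a count of its own. This requires every read of Ugt1a10 to be counted for the other gene too. Where that fails, the intervals leave out the counting error of the counts subtracted and are too narrow.

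**Figure D4:**
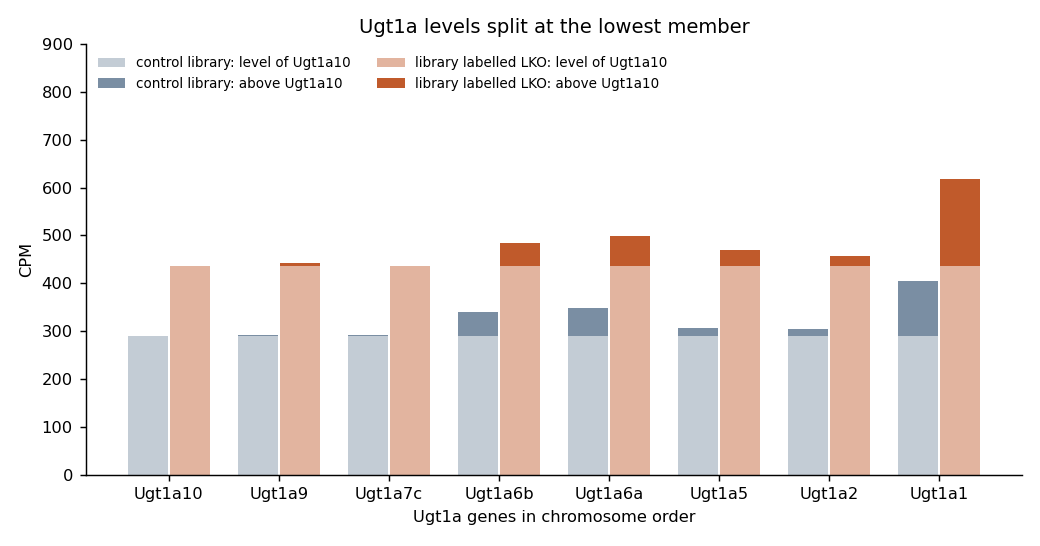
CPM of each Ugt1a gene in chromosome order, with the level of Ugt1a10 in each library in pale colour and what lies above it in full colour; grey bars are the control library and orange bars the library labelled LKO. The pale part makes up most of every bar, and the part above it is tallest for Ugt1a1, at 115 and 183 CPM.

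Of the 8 measured Ugt2 genes, which lie on chromosome 5, 2 were lower past the limit, beside 9.76% of all measured genes. Ugt2b1, a steroid and drug conjugating enzyme, had 16252 and 11811 counts (147 and 77.5 CPM) and was 1.89-fold (interval 1.85 to 1.94) lower. Ugt2a3, known for bile acid conjugation, had 9499 and 7462 counts (85.7 and 48.9 CPM) and was 1.75-fold (interval 1.70 to 1.81) lower. With total-count scaling both came inside the 1.5-fold limit. Neither transcript is a close copy of another, as windows found in other family transcripts made up 0 of Ugt2b1 and 3.77% of Ugt2a3.

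The other Ugt2 genes lay within 1.5-fold, from Ugt2b5 at 1.31-fold lower to Ugt2b35 at 1.06-fold lower. Ugt2b5, the highest of the Ugt2 genes per kb, had 227 and 173 CPM, and Ugt2b38, identical to it at 1543 of 1590 coding positions, had 53.0 and 48.2 CPM. Ugt2b34 had 131 and 122 CPM, Ugt2b36 had 123 and 109 CPM, and Ugt2b35 had 26.8 and 25.3 CPM. Ugt2b37 had only 171 and 203 counts, and its interval, 0.94 to 1.43 as a fold lower, included 1. Along the chromosome, Ugt2b1 and Ugt2a3 are separated by Ugt2b35, Ugt2b36, Ugt2b5 and Ugt2b37. Ugt2a1 and Ugt2a2, olfactory forms that share exons, had 5 and 3 counts each.

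The Ugt3 genes, which use UDP-N-acetylglucosamine or UDP-glucose in place of UDP-glucuronate, were near equal. Ugt3a2 had 172 and 182 CPM and Ugt3a1 had 45.1 and 52.3 CPM, 1.06-fold and 1.16-fold higher. Ugt8a, which makes galactosylceramide in myelinating cells, had 5 and 2 counts.

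Few sulfotransferases were measured. Past the limit were 1 higher and 2 lower of 6 measured members, beside 10.5% higher and 9.76% lower of all measured genes. The median log2 ratio was −0.46, beside −0.0032 over all measured genes, and it was −0.04 with total-count scaling. Sult5a1, an orphan sulfotransferase with little known of its substrates, had 1044 and 232 counts (9.42 and 1.52 CPM) and was 6.19-fold (interval 5.36 to 7.17) lower, the largest fold among measured members. It lies on chromosome 8 from 123140192 to 123158315 on the minus strand, away from the other members. Sult1c2 went the other way, with 254 and 742 counts (2.29 and 4.87 CPM), 2.12-fold (interval 1.84 to 2.46) higher.

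The abundant hepatic sulfotransferases had ratios below 1, and 1 passed the limit. Sult1a1, the phenol sulfotransferase, had 348 and 317 CPM, the highest of the family also per kb, and was 1.10-fold lower, turning positive with total-count scaling. Sult2a8, a hepatocyte enzyme that sulfates bile acids, had 226 and 147 CPM and was 1.53-fold (interval 1.51 to 1.56) lower. With total-count scaling its log2 ratio went from −0.62 to −0.20, inside the limit. Sult1d1, which sulfates catecholamines, had 42.3 and 30.2 CPM, 1.40-fold lower, and Sult1b1, which sulfates thyroid hormone, had 9.93 and 7.38 CPM, 1.35-fold lower. Sult1b1 and Sult1d1 adjoin the Ugt2 genes on chromosome 5.

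The 13 sulfotransferases that were not measured include genes known to be female-biased in mouse liver. Sult3a1 had 0 and 2 counts, Sult2a1, Sult2a3, Sult2a4 and Sult2a6 had 0 in both, and Sult2a2 and Sult2a5 had 0 in the control library with 4 and 1 in the library labelled LKO. Sult2a7 had 24 and 56 counts, 1.70-fold (interval 1.03 to 2.86) higher at levels of 0.217 and 0.367 CPM. Sult1e1, the estrogen sulfotransferase, had 0 and 24 counts, the latter 0.157 CPM, and the exact interval of its ratio begins at 4.38. Sult1c1, Sult2b1, Sult4a1 and Sult6b1 each had at most 22 counts over both libraries. All 13 stayed under a mean of 1 CPM.

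Genes that supply the 3 donors lay within 1.5-fold about as often as all measured genes, of which 79.7% did. The shares within were 78.6% for glutathione supply, 85.7% for UDP-glucuronate supply and 76.9% for PAPS supply. Of 14 measured glutathione supply genes 1 was higher and 2 were lower. The lower ones were Cth and Cbs, which make cysteine from homocysteine and had 312 and 140 CPM (2.23-fold lower) and 387 and 192 CPM (2.02-fold lower). Gclc and Gclm, the subunits of the rate-limiting step of glutathione synthesis, had log2 ratios of −0.04 and −0.05, and Gpx1, an abundant peroxidase that uses glutathione, had 1608 and 1364 CPM. All 3 turn positive with total-count scaling. Chac1, which breaks glutathione down, had 1.48 and 4.57 CPM and was 3.09-fold (interval 2.60 to 3.69) higher.

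Of 7 genes of UDP-glucuronate supply and glucuronide cleavage, 0 were higher and 1 was lower. Ugdh, which makes UDP-glucuronate, had 47.1 and 45.7 CPM, and Ugp2, which makes its precursor, had 83.6 and 91.6 CPM. Slc35b1, a nucleotide carrier of the endoplasmic reticulum, was 1.78-fold lower. Of 13 measured genes of PAPS supply and sulfate removal, 1 was higher and 2 were lower. Papss2, the main PAPS synthase of liver, had 222 and 305 CPM and was 1.37-fold higher, and the protein-tyrosine sulfotransferase genes Tpst1 and Tpst2 were 2.26-fold and 1.52-fold lower.

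Among 19 measured genes of other conjugation enzymes, 1 was higher and 3 were lower, and 78.9% lay within 1.5-fold, near the share over all measured genes. Nnmt, which methylates nicotinamide, had 38.4 and 4.09 CPM and was 9.41-fold (interval 8.65 to 10.3) lower. Nat8, which completes mercapturates from glutathione conjugates, was 2.89-fold lower from 317 and 151 counts. Gnmt, the glycine methyltransferase, was 1.56-fold lower. Nqo1, a quinone reductase, was 2.12-fold higher at 1.90 and 4.03 CPM, and Ephx1, which hydrolyses epoxides, was 1.28-fold higher at 187 and 240 CPM.

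The list of transporters for conjugate efflux and uptake, which also holds carriers of other compounds, included several that were higher. In that list 6 of 15 measured genes passed as higher and 1 as lower, with a median log2 ratio of 0.44. Over all measured genes 10.5% passed as higher and 9.76% as lower. Abcc3, which exports glucuronides to blood, had 49.2 and 154 CPM and was 3.12-fold (interval 3.03 to 3.22) higher. Abcb1a was 3.42-fold higher from 1.75 CPM, and Abcb4, a phospholipid floppase, was 1.65-fold higher. The canalicular conjugate exporter Abcc2 had a log2 ratio of 0.54, just inside the limit. Abcc4, another exporter to blood, had 4.93 and 3.30 CPM and was 1.49-fold lower, also inside it. Among uptake carriers, Slco1a4 was 2.26-fold higher and Slco1a1, a male-biased gene, was 4.99-fold (interval 4.72 to 5.28) lower.

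Of 23 measured regulators 7 were higher and 1 was lower, with a median log2 ratio of 0.37. The share within 1.5-fold was 65.2%, against 79.7% of all measured genes. Nr1i3, which encodes CAR, had 109 and 214 CPM and was 1.96-fold higher, while the PXR gene Nr1i2 and the NRF2 gene Nfe2l2 had log2 ratios of 0.07 and 0.20. Onecut1, a hepatocyte transcription factor gene, had 2.05 and 11.5 CPM, with an interval of 4.88-fold to 6.46-fold higher. Bcl6, a repressor with male-biased expression, had 37.2 and 7.21 CPM and was 5.16-fold (interval 4.82 to 5.52) lower.

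Of 15 measured inducible targets 5 were higher and 1 was lower. The share within 1.5-fold was 60%, against 79.7% of all measured genes. Cyp2b10, the classical CAR target, was 37.4-fold (interval 21.3 to 72.9) higher from 12 counts, and Cyp3a11, a PXR target, had 299 and 598 CPM. Cyp2b10 and Cyp2c55 counted as measured only because of their level under the LKO label. The AhR target Cyp1a2 was 1.63-fold lower. NRF2 targets were mixed. Nqo1 was higher as given above, Srxn1 and Txnrd1 had log2 ratios of 0.44 and −0.05, and Hmox1 was 1.29-fold lower. The values for Txnrd1 and Hmox1 turn positive with total-count scaling.

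**Figure D5:**
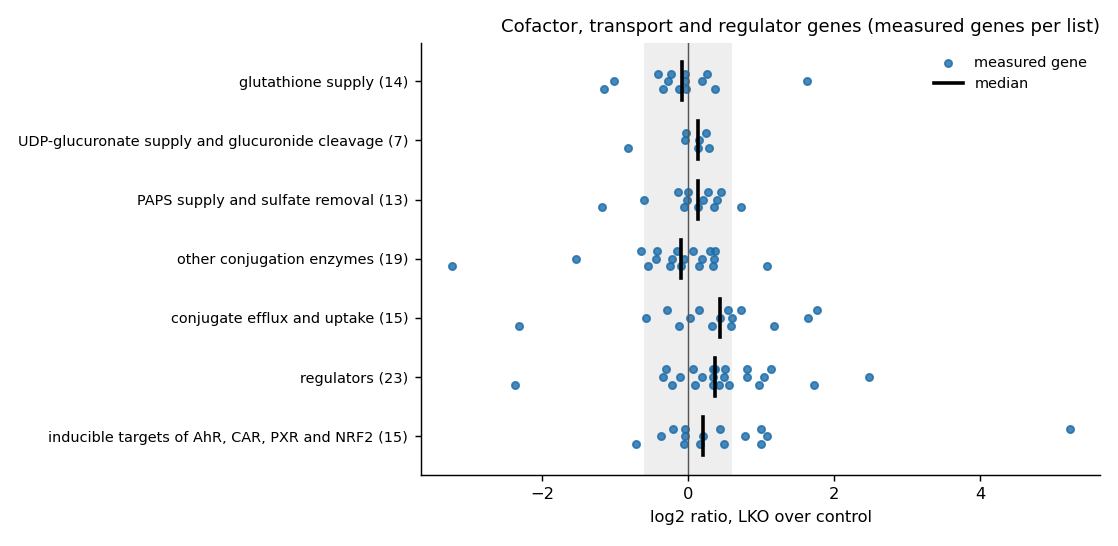
Log2 ratio (library labelled LKO over control, TMM scaling) of the measured genes of 7 related lists, with the number measured in brackets; each point is 1 gene, black bars are medians and the grey band is within 1.5-fold. The 3 donor supply lists have medians of −0.09, 0.13 and 0.14, and the transport and regulator lists have medians of 0.44 and 0.37.

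Markers of other liver cells also differed between the libraries. For comparison, 10.5% of all measured genes were higher and 9.76% were lower past the 1.5-fold limit. Of 8 measured Kupffer cell markers 0 were higher and 7 were lower, with summed levels of 151 and 91.6 CPM over 9 genes and none at 0. Of 8 stellate cell and fibroblast markers 4 were higher and 0 lower, with sums of 191 and 263 CPM. Most of these sums was Dcn, at 158 and 210 CPM and within 1.5-fold. Of 8 endothelial markers none passed, with sums of 184 and 211 CPM. Cholangiocyte markers summed to 56.9 and 44.9 CPM, with Cftr at 0 in both libraries and only 2 of 7 measured. Most of that sum was Spp1, at 51.6 and 40.2 CPM. The part of cell composition in the members' differences was not tested.

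Promoters were also searched for binding motifs. RefSeq windows from 250 bases before to 50 after a start were found for 41 of the 45 measured members, 51 windows in all. The core of the antioxidant response element bound by NRF2, TGACNNNGC on either strand, was present in 4 of the 51 windows (7.84%) and in 12.4% of all windows. Those 4 belong to Gsta3, Gstm5, Gstm7 and Mgst1, all within 1.5-fold. The AP-1 letters given above were in 5 of the 51 (9.80%), those of Gstp1, Gstp2, Gstm5, Sult1b1 and Ugt2b37, and in 5.20% of all. Of these genes Gstm5, Sult1b1 and Ugt2b37 were within 1.5-fold. The AP-1 letters were searched for after the values were seen, and Gstp1 and Gstp2 are close copies. The ROR element was in 0 of the 51 windows and in 0.219% of all windows, and the HNF1 site was in 0 of 51 and 0.0609% of all. Motifs this rare are seldom met in 51 windows, and these 2 counts say only that these letters are not in these windows.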

How the data were processed

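The authors deposited whole-number read counts for each gene symbol, not normalized, in separate tables for the 2 libraries. The submitters' processing notes name TopHat, edgeR and build mm10. Their roles and versions, the counter, annotation, strand setting and handling of multiply aligned reads were not given in the sources used here. Library input was 500 ng of total RNA, per the labels' protocols. Factors by TMM, computed in R 4.3.3 with edgeR 4.0.16, came to 0.865 (control) and 1.16 (LKO label), and CPM is the count over total count times this factor. Ratios carry 95% Clopper-Pearson intervals conditional on the summed count (SciPy 1.17.1). Without molecular identifiers PCR copies of a molecule count as separate reads, so intervals and floors (3 counts) cover counting error only. For the 39 members at a mean of 10 CPM or more, the upper limit was at most 1.09 times the fold. The calculation was tested on simulated data.

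By rule, values were named for Rora, members past 1.5-fold or within 5% of it, the 3 most abundant members per kb of each family, members at 0 in 1 library with 20 or more counts in the other, and up to 3 highest, 3 lowest and 2 most abundant genes of each related list. Further members complete a class. Gclc, Gclm, Abcc2, Abcb4, Nr1i3, Nr1i2, Nfe2l2, Srxn1 and Txnrd1 fall outside it and were chosen after their values were seen. Members and lists were chosen with earlier results of these data known. All 64 symbols matched GENCODE M21 (GRCm38, the assembly of mm10), the source of coordinates and transcript lengths. Alternatives were other scalings (total count, DESeq2 1.42.0 size factors, upper quartile, or totals that omit the 20 most abundant genes), 5 added counts, removal of a length and GC trend, other filters, a 2-fold limit and counting shared members once.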

Additional observations from a re-analysis of the deposited data

How the results depend on the processing

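With 1 library per genotype nothing could be left out in turn, and no paired analysis was possible because each group holds 1 library. The count of higher members, 13, was 2 at a 2-fold limit and 7 with shared members counted once, and it ran from 9 to 17 over the scalings. The count of lower members, 7, was 4 with total-count scaling and 4 at a 2-fold limit. The glutathione transferase median turned from −0.12 to 0.30 with total-count scaling and to 0.19 after removing the trend of ratios with length and GC, and it was −0.0044 with totals that leave out the 20 most abundant genes. The glucuronosyltransferase median of 0.15 turned to −0.084 with every member above 0 in both libraries and to −0.14 with shared members counted once, and it was 0.57 with total-count scaling, 0.27 without the 20 most abundant genes, 0.31 after trend removal and 0.21 at a mean of 10 CPM or more. The sulfotransferase median of −0.46 was −0.038 with total-count scaling and −0.28 after trend removal. Of the 20 members past 1.5-fold, 17 kept the call with total-count scaling, 18 with DESeq2 size factors, 16 with upper quartile, 19 without the 20 most abundant genes, 20 with 5 counts added and 19 after trend removal. None of the 20 changed sign under these 6 settings. The trend could be removed for all 45 measured members. The 13 sulfotransferases left out were under 1 CPM, and most of them also had under 20 counts, where depth limits the ratio.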
